A study of Mus musculus with 8 samples.

Results

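The genes described here are the 10 vascular growth factor genes of the VEGF and angiopoietin families that were taken by symbol from the count table: Vegfa, Vegfb, Vegfc, Vegfd and Pgf, the angiopoietins Angpt1, Angpt2 and Angpt4, and the angiopoietin-like genes Angptl2 and Angptl4. They are 10 of 53801 genes in the table, all 10 were measured, and all 10 received an adjusted p in the comparison across genes. RNA-seq libraries had been made from stromal cells of MO5 tumors, which are subcutaneous melanomas grown from B16 mouse melanoma cells that express ovalbumin. The host animals were ADAM12-GFP mice on a C57Bl/6 background, 8 to 12 weeks old, in which a bacterial artificial chromosome carries Cre, an internal ribosome entry site and GFP under the control of Adam12, a metalloprotease gene. Cells without CD45 (leukocytes) or CD31 (endothelial cells) that carried PDPN and PDGFRα, the surface proteins of the fibroblast-like stroma, were divided by GFP into ADAM12+ cells (GFP+, 4 libraries) and ADAM12- cells (GFP-, 4 libraries), so that both groups came from mice with the same transgene and tumor type. The labels do not say how many animals gave each library, so p-values measure the spread between these libraries.

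VEGF-A drives the growth and leakiness of blood vessels through the receptor KDR, with neuropilin-1 as a co-receptor, whereas VEGF-B and PlGF (the product of Pgf) bind FLT1. VEGF-C and VEGF-D are made as long precursors, are trimmed by proprotein convertases and other proteases, and act on the lymphatic receptor FLT4. Fully processed VEGF-C also acts on KDR. Angiopoietin-1 activates the receptor TEK and steadies vessels, angiopoietin-2 can oppose it, and ANGPTL2 and ANGPTL4 are related secreted proteins that do not bind TEK, of which ANGPTL4 also inhibits lipoprotein lipase.

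Total counts ran from 883144 reads in GFP- replicate 3 to 31666734 in GFP+ replicate 4, and the other 6 libraries lay between 7868787 and 25099664. In GFP- replicate 3 a single read was worth 11.0 normalised counts (reads divided by the library's size factor), and Angpt2 and Angpt4 rested on 1 read each there. Adam12 itself had 919.7 to 1693 normalised counts in GFP- and 1833 to 2938 in GFP+ libraries, so the transcript of the sorted gene was present in both groups. The 10 fibroblast markers summed to 262700 to 573000 normalised counts in GFP- and 682700 to 782600 in GFP+ libraries, and 7 were called higher, with log2 fold changes (GFP+ over GFP-) of 0.29 to 1.32 and a median of 0.89 over the 10. DESeq2 called all 12 melanocyte markers lower in GFP+ cells and edgeR 11, while Oca2 kept its call in 8 of 16 alternative analyses, Trpm1 in 10, Gpr143 in 14 and the other 9 in 16. Their summed level was 26240 to 76640 in GFP- against 4694 to 12110 in GFP+ libraries. In bulk samples such as these, fewer cells of a type and less RNA per cell cannot be told apart.

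Among the 10 genes, 3 were higher in ADAM12+ cells (Vegfd, Angptl2 and Vegfa), and 0 were called lower. A gene was called when its DESeq2 adjusted p, over 15283 genes tested, was under 0.05. Of all tested genes 4.66% were called higher and 4.76% lower, against 3 of 10 and 0 of 10 here. At an unadjusted DESeq2 p under 0.05 there were 5 higher and 2 lower. The edgeR quasi-likelihood test called 2 of the 10 higher (Vegfd and Angptl2) and 0 lower at an edgeR adjusted p under 0.05, where 2.83% and 2.28% of all genes it tested were called. At an unadjusted edgeR p under 0.05 there were 5 higher and 1 lower. The share of all tested genes at these unadjusted thresholds was not counted, so nothing is read from these counts. Limma voom called the same 3 genes higher and Vegfb lower, with 1289 genes called over all. The libraries of both groups did not overlap for 3 of the 10, with every GFP+ library above every GFP- library. Over all tested genes this held for 6.37%, and the opposite order held for 5.95% and for 0 of the 10. The median log2 fold change (log2FC, GFP+ over GFP-) of the 10 was 0.59, compared with -0.008 over all tested genes, with 6 positive and 4 negative values.

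**Figure D1:**
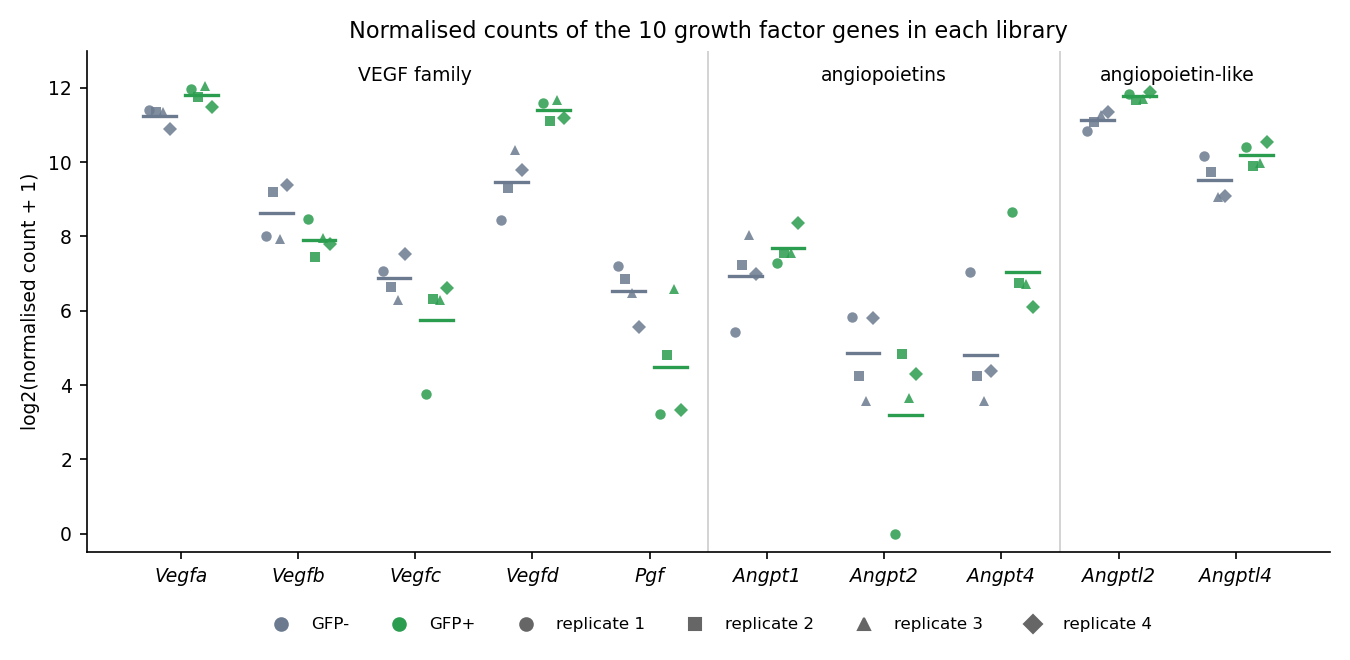
Normalised counts of each gene on a log2 scale after adding 1 (vertical axis), with 1 point per library, grey for GFP- and green for GFP+, a marker shape per replicate number, and a line at the mean of the log2 values. The groups do not overlap for Vegfa, Vegfd and Angptl2, and 1 GFP+ library of Angpt2 is at 0.

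Vegfd, the gene of the lymphangiogenic factor VEGF-D, showed the largest change of the called genes. It lies on the plus strand of chromosome X, 164373378 to 164402650 (GRCm38, ENSMUSG00000031380). Its normalised read count was 350.0, 637, 1286 and 887 in GFP- replicates 1 to 4 and 3101, 2224, 3277 and 2356 in GFP+ replicates 1 to 4. The lowest GFP+ library thus lay well above the highest GFP- library. The mean rose from 790 ± 397 to 2739 ± 527 (SD, n = 4 each), and the fit gave a 3.53-fold difference, a log2FC of 1.82 ± 0.33 (SE, DESeq2 adjusted p = 4.05e-06). The edgeR log2FC was 1.85 with an edgeR adjusted p of 0.00427, and Vegfd was called in 16 of 16 alternative analyses. Of the 712 genes called higher, 135 had a larger log2FC.

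Vegfa had the highest level per length of the 10 genes in ADAM12- cells and was higher again in ADAM12+ cells. The gene is on the minus strand of chromosome 17, 46016993 to 46032369 (ENSMUSG00000023951), with 13 annotated transcripts that the counts do not separate. Normalised counts were 2704, 2610.0, 2626 and 1897 in GFP- and 4027, 3433, 4254 and 2844 in GFP+ replicates 1 to 4. The groups did not overlap, but the gap between the highest GFP- and the lowest GFP+ library was small. From 2459 ± 377 to 3639 ± 633 (SD, n = 4 each), the fitted fold was 1.48 and the log2FC 0.57 ± 0.19 (SE, DESeq2 adjusted p = 0.0386). This call was fragile. It was lost in 7 of 16 alternatives, among them edgeR (edgeR adjusted p 0.0804) and the fits that left out GFP- replicate 2 or 4 or GFP+ replicate 1, 2 or 3. Over the 8 fits that left out 1 library the DESeq2 adjusted p ran from 0.0101 to 0.175.

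Angptl2, which encodes a secreted angiopoietin-like protein made by stromal cells, showed a modest difference with little spread. Its position is chromosome 2, 33216069 to 33247717, plus strand (ENSMUSG00000004105). Normalised counts were 1838, 2172, 2450.0 and 2628 in GFP- and 3629, 3277, 3333 and 3805 in GFP+ replicates 1 to 4. All 4 GFP+ libraries were above all 4 GFP- libraries. The mean rose from 2272 ± 345 to 3511 ± 250 (SD, n = 4 each), and the fitted fold was 1.55, a log2FC of 0.63 ± 0.16 (SE, DESeq2 adjusted p = 0.00217). The edgeR adjusted p was 0.0258, and the gene was called in 16 of 16 alternatives.

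**Figure D2:**
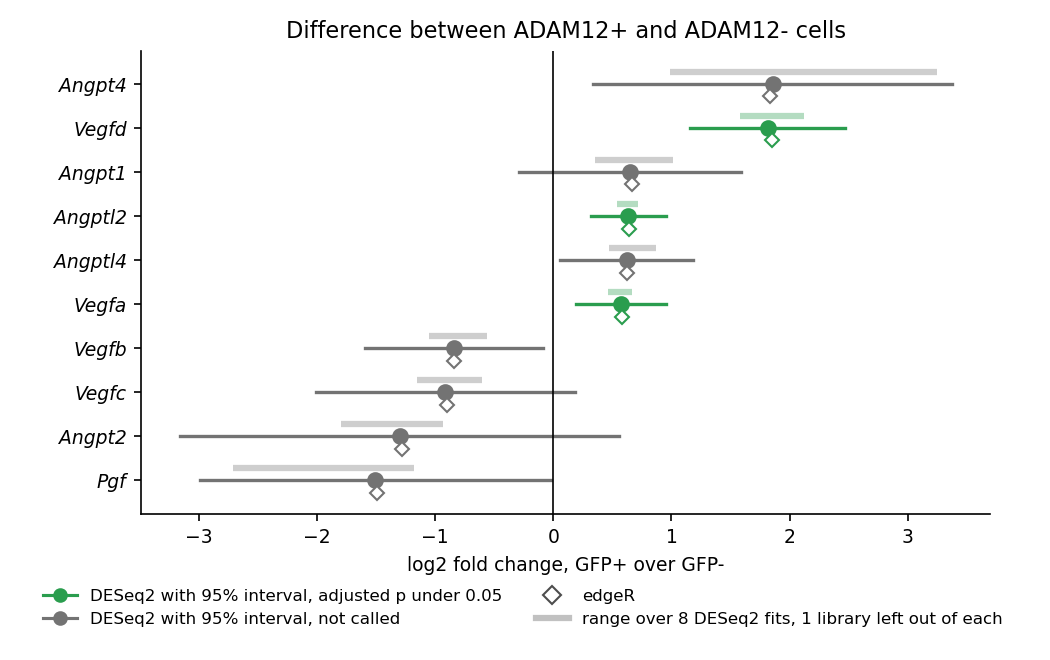
Log2FC of each gene, GFP+ over GFP-, with the DESeq2 estimate and its 95% interval (circles and lines, green where the adjusted p was under 0.05), the edgeR estimate (diamonds) and the range over 8 DESeq2 fits that each left out 1 library (pale bars). Vegfd and Angpt4 have similar estimates, 1.82 and 1.86, but the interval of Angpt4 runs from 0.34 to 3.37.

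The called changes were set beside that of Pdgfra, the gene of the gate protein PDGFRα, a comparison chosen after the values were seen. Pdgfra had a log2FC of 1.32 (DESeq2 adjusted p = 1.93e-12), which is the largest among the 10 fibroblast markers, larger than those of Vegfa and Angptl2 and smaller than that of Vegfd. Reads per exon length were divided by those of Pdgfra in the same library. For Vegfa this ratio was 1.08, 1.11, 0.871 and 0.943 in GFP- and 0.580, 0.594, 0.667 and 0.519 in GFP+ replicates 1 to 4. Relative to Pdgfra, Vegfa was lower in every GFP+ library than in any GFP- library. The ratio for Angptl2 ran from 0.501 to 0.891 in GFP- and from 0.356 to 0.474 in GFP+ libraries, again without overlap and in the opposite direction to the normalised counts. For Vegfd it was 0.249, 0.484, 0.759 and 0.784 in GFP- and 0.795, 0.685, 0.915 and 0.765 in GFP+ replicates 1 to 4, and the groups overlapped. With Pdpn, the gene of the other gate protein (log2FC 0.70, DESeq2 adjusted p = 0.0134, not called without GFP- replicate 1 or 4 or GFP+ replicate 3), as the denominator, the ratio ran from 0.441 to 0.664 in GFP- and 0.444 to 0.557 in GFP+ libraries for Vegfa and from 0.2803 to 0.472 and 0.273 to 0.414 for Angptl2, so that both overlapped. For Vegfd it ran from 0.153 to 0.416 and from 0.608 to 0.702, without overlap. Over each of the 10 fibroblast markers in turn, the ratio was lower in GFP+ libraries without overlap for 4 with Vegfa and 1 with Angptl2, and higher without overlap for 4 with Vegfd, while the others overlapped. The mean ratio was higher in GFP+ libraries over 10 of 10 markers for Vegfd, 3 for Vegfa and 2 for Angptl2. The order of the group means thus depended on the denominator for Vegfa and Angptl2, whereas for Vegfd only the overlap did. These ratios are a description with no test. The 12 melanocyte markers, whose summed level in GFP- replicates 1 to 4 was 53010, 48200, 26240 and 76640 normalised counts, and the 10 fibroblast markers moved with the groups in the directions given above, and their part in these results was not tested.

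**Figure D3:**
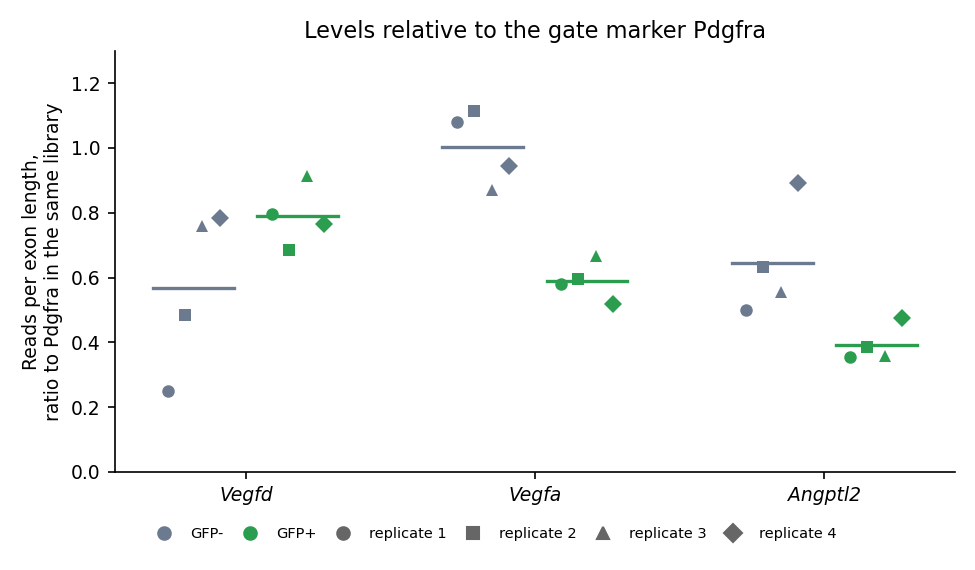
Reads per exon length of Vegfd, Vegfa and Angptl2 divided by those of Pdgfra in the same library (vertical axis, no unit), 1 point per library, grey for GFP- and green for GFP+, with a line at each group mean. With this denominator the ratio is lower in all GFP+ libraries for Vegfa and Angptl2 and overlaps for Vegfd, whereas over Pdpn it overlaps for Vegfa and Angptl2 and is higher in all GFP+ libraries for Vegfd.

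The other 3 VEGF family genes had negative log2FC values and were not called. Vegfb, whose product is linked to fatty acid uptake and the heart rather than to vessel sprouting, had 255, 582, 242 and 663 normalised counts in GFP- and 354, 172, 247 and 223 in GFP+ replicates 1 to 4. GFP- replicates 2 and 4 stood above all other libraries, while GFP- replicates 1 and 3 lay among the GFP+ values. Its log2FC was -0.84 ± 0.38 (SE), with a 95% interval from -1.59 to -0.09. The adjusted p was 0.169 with DESeq2 and 0.230 with edgeR, whereas limma voom called it lower (limma adjusted p = 0.0284). Vegfc, the other lymphangiogenic factor, had 133, 99.6, 76.9 and 183 normalised counts in GFP- and 12.5, 78.7, 76.8 and 96.6 in GFP+ replicates 1 to 4. The groups overlapped, and GFP+ replicate 1 was the lowest of the 8 libraries. The log2FC of Vegfc was -0.92, with an interval from -2.01 to 0.18 (DESeq2 adjusted p = 0.356).

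Pgf, the gene of placental growth factor, varied more among the GFP+ libraries, relative to its mean, than the other VEGF ligands. Its normalised counts were 148, 115, 87.9 and 46.2 in GFP- and 8.33, 27.2, 95.3 and 9.06 in GFP+ replicates 1 to 4. GFP+ replicate 3 lay within the GFP- range and the other 3 GFP+ libraries lay below it. With all libraries its log2FC of -1.51 ± 0.76 (SE) had a DESeq2 adjusted p of 0.228. Leaving out GFP+ replicate 3 gave -2.71 (DESeq2 adjusted p = 0.00154).

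Since levels of different genes can be compared only per length, the normalised count was divided by the summed exon length of each gene in kilobases. In GFP- libraries the order from high to low was Vegfa (574 ± 88.0 per kilobase), Angptl2 (362 ± 54.9), Vegfd (328 ± 165), Vegfb (271 ± 136), Angptl4 (218 ± 83.0), Vegfc (50.3 ± 18.9), Pgf (34.2 ± 14.8), Angpt1 (27.9 ± 17.6), Angpt4 (19.2 ± 24.5) and Angpt2 (9.43 ± 6.41). Vegfa was separate from Angptl2, and Angptl4 from Vegfc, whereas the ranges of all other neighbours in this order overlapped. In GFP+ libraries the order was Vegfd (1138 ± 219), Vegfa (849 ± 148), Angptl2 (559 ± 39.7), Angptl4 (339 ± 74.1), Vegfb (155 ± 47.8), Angpt4 (72.8 ± 66.5), Angpt1 (41.3 ± 15.2), Vegfc (27.01 ± 15.05), Pgf (12.0 ± 14.2) and Angpt2 (3.92 ± 3.17; SD, n = 4 throughout). The ranges of Vegfd and Vegfa overlapped, those of Vegfa, Angptl2, Angptl4 and Vegfb were separate from one another, and from Vegfb downwards each overlapped with the next. Among all tested genes the level of Vegfd stood at percentile 93.5 in GFP- and 98.1 in GFP+ libraries, and that of Vegfa at percentiles 96.6 and 97.4. Angpt2, at the other end, stood at percentiles 21.4 and 11.6.

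The make-up of the VEGF ligands therefore differed between the groups. The 5 ligand genes summed to 1258 ± 146 normalised counts per kilobase in GFP- and 2181 ± 388 in GFP+ libraries (SD, n = 4 each). Vegfd made up 14.0%, 20.1%, 39.3% and 28.0% of this sum in GFP- and 52.4%, 49.3%, 52.9% and 53.6% in GFP+ replicates 1 to 4. In every GFP+ library Vegfd was the largest component, and in 3 of 4 GFP+ libraries it was over the sum of all others. The share of Vegfa was 46.4% ± 11.1 in GFP- and 39.0% ± 2.69 in GFP+ libraries, and that of Vegfb was 21.3% ± 9.70 and 7.08% ± 1.53 (SD, n = 4 each). Vegfc took 4.08% ± 1.63 and 1.33% ± 0.840, and Pgf 2.83% ± 1.56 and 0.516% ± 0.534. The ratio of Vegfd to Vegfa per length was 0.230, 0.434, 0.871 and 0.832 in GFP- and 1.37, 1.15, 1.37 and 1.47 in GFP+ replicates 1 to 4. Vegfa thus exceeded Vegfd in each GFP- library and Vegfd exceeded Vegfa in each GFP+ library. Of both genes for lymphangiogenic factors, Vegfd exceeded Vegfc per length 2.68, 6.51, 17.0 and 4.92 times in GFP- and 252, 28.8, 43.4 and 24.8 times in GFP+ replicates 1 to 4. The highest value of each group rested on a library with few Vegfc reads, 7 in GFP- replicate 3 and 9 in GFP+ replicate 1. Shares and ratios are descriptions with no test of their own.

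**Figure D4:**
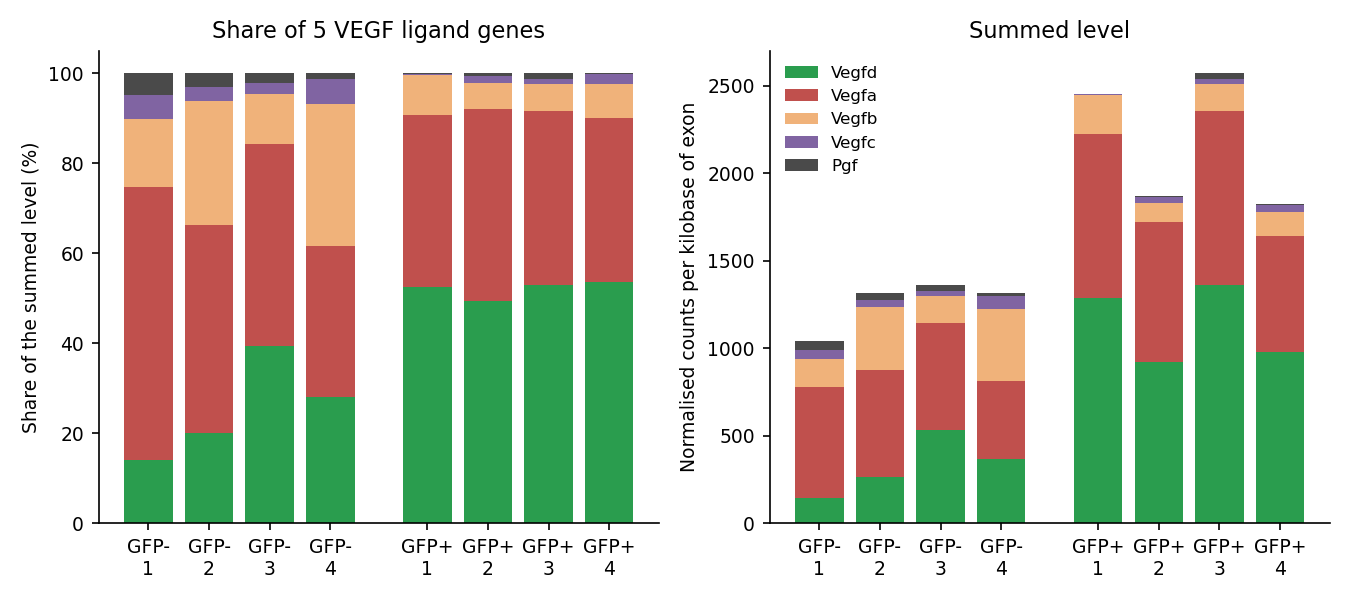
Make-up of the 5 VEGF ligand genes in each library, as a share of their summed level in percent (left) and as normalised counts per kilobase of exon (right), stacked by gene. Vegfd takes 14.0% to 39.3% of the sum in GFP- and 49.3% to 53.6% in GFP+ libraries, and the summed level is 1041 to 1359 in GFP- and 1824 to 2572 in GFP+ libraries.

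The angiopoietins were expressed at low levels, and 0 of 3 were called. Angpt1, the gene of the TEK agonist, had 42.1, 150, 264 and 126 normalised counts in GFP- and 154, 188, 187 and 331 in GFP+ replicates 1 to 4. The highest GFP- library, replicate 3, rested on 24 reads and lay within the GFP+ range. The log2FC was 0.65, with an interval from -0.29 to 1.59 (DESeq2 adjusted p = 0.481). Its exons share 737 bases with Gm17473 on the opposite strand, and reads had been counted by strand. Angpt2 had 55.6, 17.9, 11.0 and 54.6 normalised counts in GFP- and 0, 27.6, 11.5 and 18.8 in GFP+ replicates 1 to 4. The GFP+ library at 0 allows up to 4.17 normalised counts, the value of 3 reads at its depth. The log2FC was -1.30 with an interval from -3.16 to 0.56 (DESeq2 adjusted p = 0.475), and Angpt2 was not called. The ratio of Angpt1 to Angpt2 per length was 0.536, 5.93, 5.67 and 1.63 in GFP- replicates 1 to 4. In GFP+ libraries it was at least 26.2 in replicate 1, where Angpt2 was set to 3 reads, and 4.82, 11.5 and 12.5 in replicates 2 to 4. Angpt1 exceeded Angpt2 in 7 of 8 libraries, with overlap between the groups.

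Angpt4, which encodes a further TEK ligand, had 130, 17.9, 11.0 and 19.96 normalised counts in GFP- and 401, 106, 104 and 67.4 in GFP+ replicates 1 to 4. In each group replicate 1 was far above the other 3, and the groups overlapped only through GFP- replicate 1. The log2FC was 1.86 ± 0.77 (SE), and the adjusted p was 0.118 with DESeq2 and 0.237 with edgeR. Without GFP- replicate 1 the log2FC of Angpt4 was 3.25 (DESeq2 adjusted p = 9.7e-05), and without GFP+ replicate 1 it was 0.99 (DESeq2 adjusted p = 0.518). With the replicate number added to the model, Angpt4 was called, with a log2FC of 2.10 (DESeq2 adjusted p = 0.000227), though no label states a pairing. The size and the call of this difference thus depended on single libraries and on the model, and the GFP- values rested on 1 to 96 reads.

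Angptl4, an inhibitor of lipoprotein lipase that is known to respond to fasting, fatty acids and hypoxia, had 1155, 856, 538 and 545 normalised counts in GFP- and 1348, 951, 1013 and 1495 in GFP+ replicates 1 to 4. GFP- replicate 1 lay within the GFP+ range and the other 3 GFP- libraries lay below it. The mean was 773 ± 294 in GFP- and 1202 ± 262 in GFP+ libraries (SD, n = 4 each), with a log2FC of 0.62 and an interval from 0.06 to 1.18 (DESeq2 adjusted p = 0.175). Without GFP- replicate 1 it was called, with a log2FC of 0.87 (DESeq2 adjusted p = 0.0191). Of the other angiopoietin-like genes 3 were tested, with a median log2FC of 0.61, and 0 were called by DESeq2 or edgeR or had an unadjusted p under 0.05.

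Upstream sequences are shown for the 3 called genes, because they moved in the same direction. RefSeq windows of 250 bases before an annotated transcription start (GRCm38.p6) were found for 7 of the 10 genes, with 9 windows in all, among them 2 each for Vegfa and Pgf. Angpt1, Angpt2 and Angptl4 had none. Lower case is used, and capitals mark matches on either strand to 4 of the 7 motifs searched. These were TATAAA, which marks some promoters close to the start, CCAAT, a common promoter element, TGANTCA, the site of AP-1 factors, and ACGTG, the core of the hypoxia response element. The GC box, the E-box and the direct repeat bound by PPARs were searched too but are not capitalised. For Vegfd only the 106 bases before the start of the GENCODE gene are shown, since the other 144 bases of its window lie in the GENCODE first exon.
Vegfd, chrX:164373272-164373377, plus strand: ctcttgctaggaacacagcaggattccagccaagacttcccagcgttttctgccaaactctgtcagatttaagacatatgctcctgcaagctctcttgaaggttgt
Vegfa, chr17:46032378-46032627, minus strand: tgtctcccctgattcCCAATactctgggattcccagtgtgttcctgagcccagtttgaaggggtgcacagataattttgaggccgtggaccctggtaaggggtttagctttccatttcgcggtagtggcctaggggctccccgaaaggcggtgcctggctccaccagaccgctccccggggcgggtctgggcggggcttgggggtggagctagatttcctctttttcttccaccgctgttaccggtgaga
Angptl2, chr2:33215711-33215960, plus strand: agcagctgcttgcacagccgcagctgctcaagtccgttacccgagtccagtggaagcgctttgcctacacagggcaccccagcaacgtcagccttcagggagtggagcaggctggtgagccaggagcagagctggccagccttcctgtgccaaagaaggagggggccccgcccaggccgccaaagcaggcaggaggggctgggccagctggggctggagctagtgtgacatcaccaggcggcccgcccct
The only capitals here are a CCAAT match in Vegfa, and CCAAT was in 33.8% of 32851 windows genome-wide. TATAAA began at position -73 from the RefSeq start of Vegfd, in the part not shown, and at -30 from that of Angpt4, and 12.4% of all windows held it. ACGTG, in 16.6% of all windows, was present in 1 of 9, at an internal start of Vegfa, and TGANTCA, in 6.75% of all windows, was in 0 of 9. The E-box (CACGTG, in 6.02% of all windows) and the PPAR repeat (in 0.0335%) were each in 0 of 9. The windows of Vegfa, Angptl2, Vegfb, Vegfc, Angpt4 and 1 of Pgf held GGGCGG (GC box, in 32.7% of all windows), and that of Vegfd did not. G and C made up 42.4% of the Vegfd window, 59.2% of the Vegfa window shown and 66.8% of the Angptl2 window, with a median of 52.4% over all windows. A match is a description of these letters only.

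The receptors were examined next, in a list of 11 genes of which 9 were tested. For this list and those below, the shares of all tested genes called by DESeq2 were 4.66% higher and 4.76% lower. Nrp1 was called higher and Nrp2 lower, 7 were not called, and the median log2FC was 0.16, compared with -0.008 over all tested genes. Nrp1, a co-receptor of VEGF-A on vessels and on stromal cells, had 1050.0 to 1505 normalised counts in GFP- and 2181 to 3033 in GFP+ libraries, a log2FC of 0.95 ± 0.18 (SE, DESeq2 adjusted p = 1.71e-05). Nrp2, a co-receptor for VEGF-C and VEGF-D and for semaphorins, had 1981, 1875, 1253 and 2488 in GFP- and 299, 526, 241 and 662 in GFP+ replicates 1 to 4, a log2FC of -2.14 ± 0.33 (SE, DESeq2 adjusted p = 2.18e-08). Both neuropilins were called by edgeR too, and the groups did not overlap for either. The order of Nrp2 over the GFP- libraries was that of the melanocyte marker sum given above, lowest in replicate 3 and highest in replicate 4, and the part of such cells in the difference was not tested.

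Kdr and Tek, the receptors of VEGF-A and of the angiopoietins, were present in both groups although CD31+ cells had been gated out. Kdr had 426, 629, 659 and 306 normalised counts in GFP- and 1912, 844, 1369 and 288 in GFP+ replicates 1 to 4, with GFP+ replicate 4 below every GFP- library. Its log2FC was 1.14 ± 0.46 (SE, DESeq2 adjusted p = 0.107), and it was called in 1 of 16 alternatives, the fit without GFP+ replicate 4 (DESeq2 adjusted p = 0.000774). Tek had 818, 1293, 1604 and 1519 in GFP- and 1329, 1259, 1626 and 1303 in GFP+ replicates 1 to 4, a log2FC of 0.09 ± 0.23 (SE, DESeq2 adjusted p = 0.899). Flt1 (log2FC -0.36, DESeq2 adjusted p 0.758) and Flt4 (-1.21, DESeq2 adjusted p 0.612) were not called, and Flt4 averaged 14.0 and 5.57 normalised counts. Tie1 averaged 1.93 and 0.398 and received no adjusted p. Of the endothelial marker list, 0 of 11 tested genes were called higher and 1 lower (Vwf, log2FC -3.30). Its summed level was 1868 to 3109 in GFP- and 2138 to 3819 in GFP+ libraries. This list also holds Kdr, Flt1, Tek and Tie1, so its count and sum are not independent of the receptor values above. In GFP+ replicate 1, Kdr and Tek had 1912 and 1329 of the sum of 3819. Pecam1, the gene of CD31, averaged 208 and 261 normalised counts. The GFP- mean of Pecam1 rested on replicate 3, at 516 normalised counts from 47 reads, without which the log2FC was 1.31 (DESeq2 adjusted p = 0.00439), and limma voom with all libraries called it higher (1.23, limma adjusted p = 0.0438). Cdh5, a junction gene that defines endothelial cells, ran from 0 to 29.4 over the 8 libraries, in which Tek and Kdr had at least 288.

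In the list of genes that process VEGF-C and VEGF-D, 8 were tested, 1 was called higher and 0 lower. Pcsk5, a proprotein convertase, had a log2FC of 0.95 ± 0.23 (SE, DESeq2 adjusted p = 0.00111), from 1349 ± 294 to 2593 ± 620 normalised counts (SD, n = 4 each). The other 7 were not called by DESeq2 or edgeR, and the median of the list was -0.16.

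**Figure D5:**
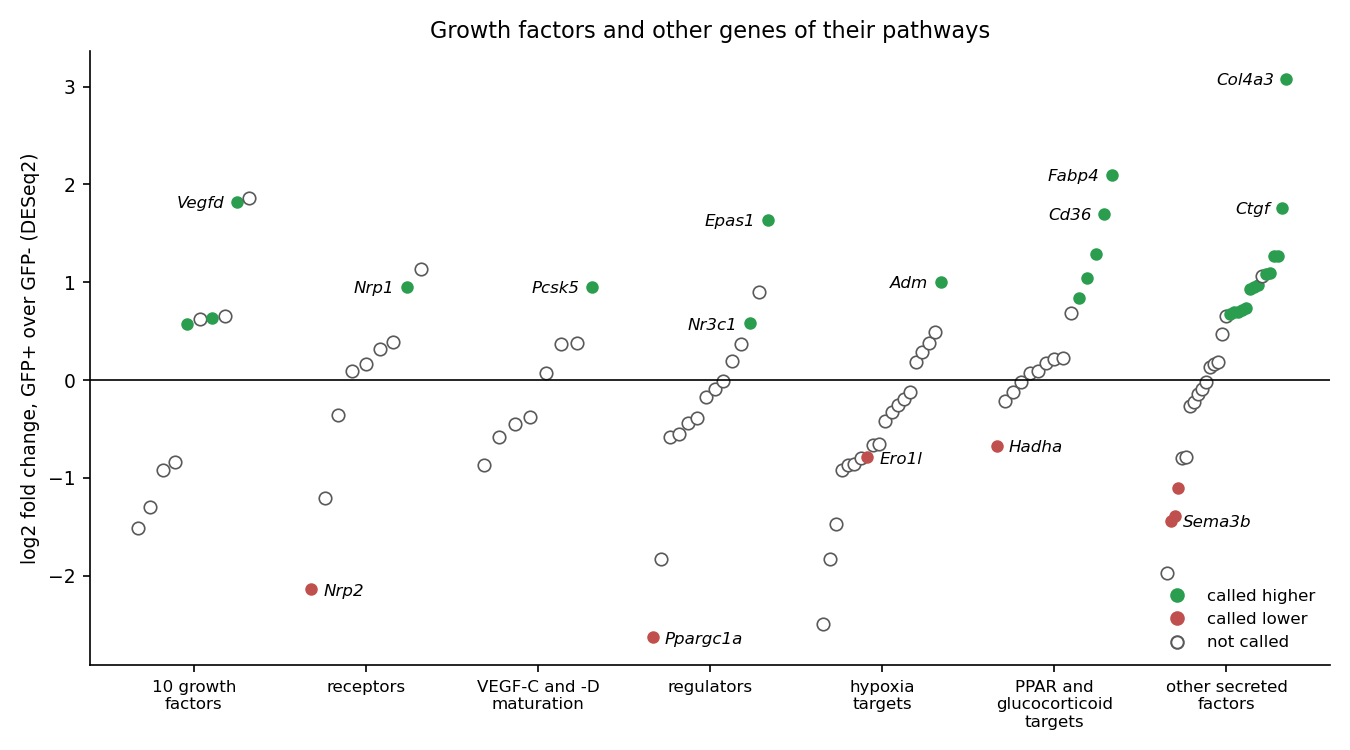
DESeq2 log2FC, GFP+ over GFP-, of each tested gene in the growth factor group and in 6 lists of related genes, ordered by value within a list, with called genes filled green (higher) or red (lower) and the others open. Called genes lie above 0 more often than below it in the list of other secreted factors, 14 against 3, whereas the hypoxia list has 1 of each. Of all tested genes 4.66% were called higher and 4.76% lower. At an unadjusted p under 0.05, for which no such share was counted, the hypoxia list has 6 lower and 1 higher.

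Of 14 transcriptional regulators tested, 2 were higher, 1 was lower and 11 were not called, with a median log2FC of -0.13, and edgeR made the same counts of 2 and 1. Epas1, which encodes the hypoxia-inducible factor HIF-2α, had 353, 282, 429 and 319 normalised counts in GFP- and 789, 998, 726 and 1729 in GFP+ replicates 1 to 4, a log2FC of 1.64 ± 0.30 (SE, DESeq2 adjusted p = 4.62e-06). Hif1a, the gene of HIF-1α, averaged 1044 and 1026, with a log2FC of -0.01 ± 0.18 (SE, DESeq2 adjusted p = 0.981). Nr3c1, the glucocorticoid receptor gene, had a log2FC of 0.58 ± 0.16 (SE, DESeq2 adjusted p = 0.00520). That call was lost without GFP- replicate 2 (DESeq2 adjusted p = 0.0532) and without GFP+ replicate 3 (0.0520). Ppargc1a, a coactivator gene of mitochondrial metabolism, had 890.0 to 2211 normalised counts in GFP- and 121 to 336 in GFP+ libraries, with a log2FC of -2.63 (DESeq2 adjusted p = 1.38e-10). Over the GFP- libraries its lowest and highest values were again those of replicates 3 and 4. The fatty acid receptors Pparg (log2FC 0.90, DESeq2 adjusted p 0.469) and Ppard (-0.44, DESeq2 adjusted p 0.363) were not called. Without GFP- replicate 1, Pparg was called higher, with a log2FC of 1.94 (DESeq2 adjusted p = 0.0130).

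Known targets of these regulators were counted in the same way, where 4.66% of all tested genes were called higher and 4.76% lower. Of 20 hypoxia targets, Adm (adrenomedullin, a vasodilator peptide) was called higher and Ero1l (an oxidase of the endoplasmic reticulum) lower, 18 were not called, and the median log2FC was -0.54. At an unadjusted DESeq2 p under 0.05 there were 1 higher and 6 lower, and the share of all tested genes at that threshold was not counted. With 1 library left out, the number called lower rose to 3 without GFP- replicate 1 and 2 without GFP- replicate 4, and it was 0 when GFP- replicate 2, or either replicate 2 or replicate 4 of GFP+, was left out. It was also 0 by edgeR and by limma voom. Adm, at 816 ± 361 in GFP- and 1600 ± 158 in GFP+ libraries (SD, n = 4 each), had a log2FC of 1.00 ± 0.29 (SE, DESeq2 adjusted p = 0.0104), and its call was lost without GFP- replicate 2 or GFP+ replicate 3. Ero1l had a log2FC of -0.79 (DESeq2 adjusted p = 0.0239) and an edgeR adjusted p of 0.0690, and it was called in 10 of 16 alternatives. Of 15 targets of PPARs and the glucocorticoid receptor, 5 were called higher and 1 lower, edgeR called 4 and 1, and the median log2FC was 0.22. The fatty acid handling genes Fabp4 (log2FC 2.10, DESeq2 adjusted p 0.00291) and Cd36 (1.70, DESeq2 adjusted p 0.00142) rose, as did the glucocorticoid targets Sgk1 (1.29, DESeq2 adjusted p 0.00266) and Klf9 (1.04, DESeq2 adjusted p 5.79e-05). Fabp4 lost its call without GFP+ replicate 4 (DESeq2 adjusted p = 0.0555). Zbtb16, also called higher, lost its call with edgeR (edgeR adjusted p 0.0609) and without any of several single libraries. Of the glucocorticoid targets in the list, Fkbp5, Tsc22d3 and Per1 were not called, and neither was Pdk4 (log2FC 0.07, DESeq2 adjusted p 0.966). Hadha, an enzyme of mitochondrial fatty acid oxidation, fell by 0.67 on the log2 scale (DESeq2 adjusted p = 6.29e-05). Lpl, the gene of the lipase that ANGPTL4 inhibits, was a member of the adipocyte list and had a log2FC of 1.74 (DESeq2 adjusted p = 1.17e-12). Of that list 3 were tested and 2 called higher, Fabp4 and Lpl, and all 3 had an unadjusted p under 0.05 and no overlap between the groups. The third was Plin1, named here after its values were seen, with a log2FC of 3.88 (DESeq2 adjusted p = 0.112) and means of 0.394 and 11.6 normalised counts. The summed level of the adipocyte markers was 1889 to 2314 in GFP- and 5836 to 10890 in GFP+ libraries, while Adipoq, a defining marker, averaged 0.621 and 1.95. This sum includes Fabp4 and Lpl and so is not independent of their values. The part of such cells in the values of Angptl4, Fabp4 and Lpl was not tested.

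Of 35 other secreted factors that promote or restrain vessel growth, 31 were tested, 14 were called higher, 3 lower and 14 not called, and the median log2FC was 0.65, where 4.66% of all tested genes were called higher and 4.76% lower. The edgeR test called 13 higher and 2 lower. The largest positive changes were those of Col4a3, a basement membrane collagen whose fragment tumstatin restrains vessels (log2FC 3.08, DESeq2 adjusted p 4.1e-11), Ctgf, a matricellular factor (1.76, DESeq2 adjusted p 2.11e-05), Col18a1, the source of endostatin (1.27, DESeq2 adjusted p 3.66e-07), and Thbs2, an anti-angiogenic thrombospondin (1.27, DESeq2 adjusted p 0.00349). Thbs2 had 12340 to 27290 normalised counts in GFP- and 19130 to 57240 in GFP+ libraries, which overlapped. The 3 lower genes were Sema3b (log2FC -1.44, DESeq2 adjusted p 0.00635), Edn1, the gene of the vasoconstrictor endothelin-1 (-1.39, DESeq2 adjusted p 0.00142), and Sema3e (-1.10, DESeq2 adjusted p 0.00597). Sema3b lost its call without GFP- replicate 2 (DESeq2 adjusted p = 0.0595), and Sema3e with edgeR. Genes of known inhibitors of vessel growth and of known promoters thus stood among the higher genes beside Vegfa and Vegfd. The fibroblast markers were higher and the melanocyte markers lower in the same GFP+ libraries, and the part of such cells in these counts was not tested.

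Markers of other cells that the gate could hold were counted as well. Of 11 pericyte and smooth muscle markers tested, 1 was called higher (Abcc9, a call lost in 9 of 16 alternatives) and 1 lower (Mcam), and the summed level was 924 to 1439 in GFP- and 855 to 1711 in GFP+ libraries. Of 12 leukocyte markers tested 0 were called by DESeq2 or edgeR, with 0 at an unadjusted p under 0.05. Their summed level was 907 to 5724 in GFP- libraries, highest in replicate 3, and 877 to 4516 in GFP+ libraries, highest in replicate 2. The summed levels of both lists overlapped between the groups.

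For each called growth factor the 3 genes with the most similar pattern over the 8 libraries were listed among 8812 genes with a mean of at least 100 normalised counts, by Pearson's r on the log2 scale, as a description. For Vegfd these were Ntrk2 (0.992), Fgf7 (0.990) and Pcf11 (0.990), and for Vegfa they were Adgrf5 (0.988), Timp3 (0.988) and Prex2 (0.986). For Angptl2 they were Scn7a (0.988), Pla2r1 (0.980) and Sfrp1 (0.979). Timp3 was also among the 14 secreted factors called higher. All 8 libraries enter both the values and the group difference, so a high r follows in part from that difference.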

How the data were processed

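RNA-seq libraries of 8 sorted stromal cell samples (4 GFP-, 4 GFP+, grouped by the reporter state in their labels) came from a low-input, strand-keeping total RNA kit. Per the study's methods and the submitters' processing notes, the authors trimmed reads with cutadapt 3.4, mapped them to GRCm38 with STAR 2.7.3a and counted them per Ensembl gene and strand with featureCounts 2.0.1. The unit analysed here is the raw count that the authors deposited for every gene in every library. The deposited table also gives a normalised score made by the authors, in which size factors from DESeq2 had been applied and values rounded. All 430408 of these scores lay within 1 of the values computed here. The table's columns of fold changes, p-values and dispersion were not used. Per-sample columns left unused: 0. Reads of near-identical genes can be lost or split by such counting.

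Total counts were 883144 to 31666734 per library, without molecular identifiers, so that limits from a count of 0 cover counting error only. Genes with a count (29043) were fitted in R 4.3.3 with DESeq2 1.42.0 on group alone, using median-of-ratios scaling, two-sided Wald tests and independent filtering. Benjamini-Hochberg adjustment ran over 15283 genes, and a gene was called at an adjusted p under 0.05. Intervals of fold changes are 95% Wald intervals. The edgeR 4.0.16 quasi-likelihood test with TMM and limma 3.58.1 voom were alternatives, with 14 others: DESeq2 with TMM factors, with scaling on genes that averaged 100 or more, with a minimum mean of 10 raw counts, without independent filtering, without the filter on Cook's distance, with a replicate block, and without each library in turn. The code was tested on simulated data. Replicates were compared by a chi-square test of their counts, and no pair was closer than independent libraries.

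Gene positions, exon lengths and overlaps came from GENCODE M21 on GRCm38, in which 53706 of 53801 identifiers were found, and upstream windows came from RefSeq. Itgam stood on 2 identifiers, and the lower one was used. The 10 genes and all lists were chosen with earlier results of these data known. Genes named from a list were those called, at most 4 in each direction by absolute log2 fold change, and the main receptors and regulators whatever their result. From lists of cell type markers at most 3 were named.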

Additional observations from a re-analysis of the deposited data

Results flagged for a closer look

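Each of the 10 growth factor genes was examined in each group of 4 libraries for a library that stood apart, which made 20 groups, and chance marks about 1 in 20 such groups. A library was marked when its gap to the nearest other library was a large enough part of the range of its group by Dixon's criterion. Vegfa in GFP- libraries was marked (0.884 of the range), because replicate 4, with 1897 normalised counts, lay below the other 3, which had 2610.0 to 2704. Without that library the log2 fold change of Vegfa was 0.46 with a DESeq2 adjusted p of 0.132. Replicate 4 also had the highest summed level of melanocyte markers among the GFP- libraries, 76640, and the lowest of fibroblast markers, 262700, and their part in the value of Vegfa was not tested.

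Angpt4 was marked in both groups, in GFP- libraries (0.925 of the range) for replicate 1 with 130 normalised counts against 11.0 to 19.96 in the others, and in GFP+ libraries (0.884 of the range) for replicate 1 with 401 against 67.4 to 106. With replicate 1 of GFP- left out, the log2 fold change of Angpt4 was 3.25, and with replicate 1 of GFP+ left out it was 0.99. The labels do not say whether libraries with the same number came from the same animals.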

How the results depend on the processing

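Of 160 fold changes of the 10 genes under the 16 alternatives, 147 stayed on the same side of the threshold, 7 (all Vegfa) lost their call, 6 gained one and 0 changed direction. The number of genes called higher among the 10 was 2 to 5 in the fits that left out 1 library each (5 without GFP- replicate 1, where Angpt4 and Angptl4 were added) and 2 with edgeR. The number called lower was 1 with limma voom (Vegfb), 1 with the replicate block (Pgf) and 0 to 1 when single libraries were left out (Pgf without GFP+ replicate 3). Over all genes 732 were called with edgeR against 1439 with DESeq2, and 969 to 1837 when single libraries were left out. The order of levels in GFP+ libraries differed for 5 of the 10 genes when counts were not divided by length and for 0 with the length of the longest transcript. Without the division the GFP+ mean of Vegfd, 2739 normalised counts, was below those of Angptl2, 3511, and Vegfa, 3639.

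Replicate numbers are shared between the groups, but deviations from the group means of same-numbered libraries correlated at 0.0503, -0.158, -0.122 and 0.262 over 8812 genes. The numbers were therefore not taken to pair the libraries, although correlations over so few libraries cannot exclude a pairing. With the replicate block 1492 genes were called, and 4 of the 10 were called higher, with Angpt4 (DESeq2 adjusted p 0.000227) added. Vegfa then had a DESeq2 adjusted p of 0.00111, and Pgf was called lower (DESeq2 adjusted p 0.0229). The hypoxia targets called lower went from 1 to 2 with the block, Car9 (log2FC -2.73, DESeq2 adjusted p 0.0446) being added. Of 224 counts for the gene lists, 18 moved by more than 1.5 times, all counts of 3 or fewer. GFP- replicate 3, with 883144 reads, limits what can be said of Vegfb, Vegfc, Pgf, Angpt1, Angpt2 and Angpt4, which had 1 to 24 reads in it.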
